A study of Homo sapiens with 6 samples.

Results

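The GDF15, activin, BMP and TGF-beta ligand genes were taken by symbol from a table of 58299 genes measured in AC16 cells. All 10 listed genes were found: GDF15, GDF11, INHBA, INHBB, FST, TGFB1, TGFB2, TGFB3, BMP2 and BMP4. FST encodes an antagonist, follistatin, and the other members encode ligands or ligand subunits. AC16 is an immortal human line made by fusing cells of adult ventricular tissue with a transformed human fibroblast line. The vehicle group received DMSO at 0.1% and the treated group 100 nM doxorubicin, an anthracycline that poisons type II topoisomerases, each for 48 h. Poly(A) RNA was sequenced without strand information from 3 libraries per group. Nothing in the labels says that the libraries come from separate cultures. The p-values therefore cover only the spread among these libraries, which may be technical. The series title places the comparison in work on NRF2 and doxorubicin toxicity.

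Ligands of this superfamily are secreted as dimers that bring type I and type II receptor kinases together. The TGF-beta isoforms, activins and GDF11 act mainly through SMAD2 and SMAD3, while BMPs act mainly through SMAD1, SMAD5 and SMAD9. In the heart, TGF-beta is best known for its action on fibroblasts and matrix. GDF15 is a distant relative that is secreted by stressed cells and acts through the receptor GFRAL with its partner RET.

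Column totals ranged from 17252862 to 19571731 counts. Levels are given as CPM, counts per 1e+06 of the library size. That size is the summed counts of the genes that passed the filter on low counts, scaled by the trimmed mean of M-values (TMM). RPKM is the CPM value per kilobase of exon. Of 12 cardiomyocyte markers, only GATA4 and TTN passed the expression filter, against 9 of 9 fibroblast markers. The cardiomyocyte list summed to 29.6 to 30.5 CPM in DMSO and 30.55 to 34.6 CPM in doxorubicin, and 1 of its markers was higher. The fibroblast markers summed to 15770 to 18040 CPM in DMSO and 5472 to 8130 CPM in doxorubicin. Of the 9, 7 were lower, beside 32.0% of all tested genes. Collagen RNA made up most of that sum in DMSO, with means of 9864 CPM for COL1A1, 3071 for COL1A2 and 1230 for COL3A1. The 5 measured epithelial markers (of 6) were all higher, beside 32.7% of all tested genes, and the list summed to 219 to 295 and 392 to 401 CPM. Endothelial markers summed to 15 to 17.5 and 10.0 to 11.7 CPM, and immune markers to 1.96 to 2.81 and 3.01 to 4.14 CPM. Among the endothelial markers 1 was called higher and 1 lower, and 0 immune markers were called. No marker was at 0 in all libraries. The part of these shifts in the results below was not tested, and in bulk RNA fewer cells of a type and less RNA per cell cannot be told apart.

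Of the 10 genes, 9 passed the filter on low counts, and BMP2 did not. At an adjusted p under 0.05 in edgeR's quasi-likelihood test, GDF15, INHBA, FST and TGFB3 rose (4 genes), INHBB, GDF11 and BMP4 fell (3 genes), and TGFB1 and TGFB2 did not pass. Over all 15358 tested genes, 64.7% were called, 32.7% higher and 32.0% lower, so the share of 7 in 9 is not far from the background. The groups did not overlap in 8 of the 9 genes, against 69.1% of all tested genes. The median log2 fold change of the 9 genes was 0.12, against -0.0013 over all tested genes. The sizes ranged from a 139-fold rise of GDF15 to a 7.15-fold fall of INHBB.

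**Figure D1:**
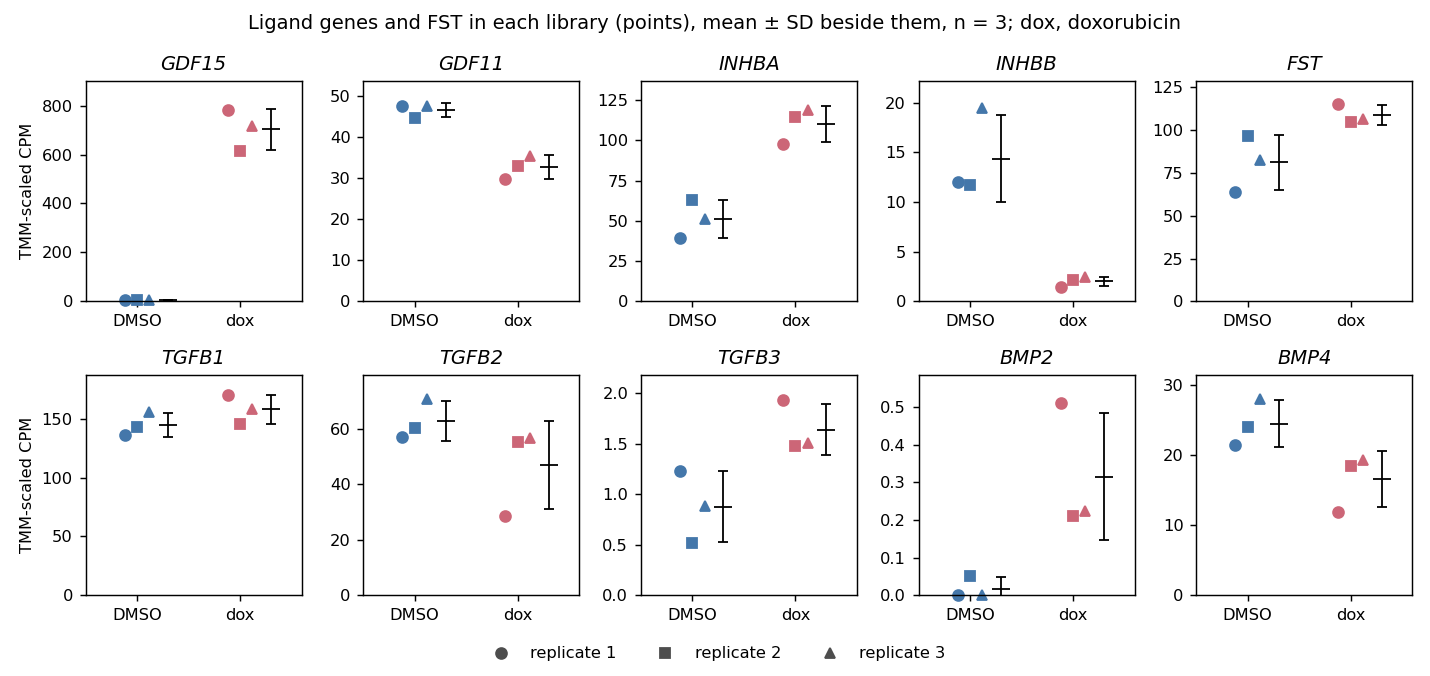
TMM-scaled CPM (vertical axes from 0, a scale of its own for each gene) of the 10 genes in the 3 DMSO and 3 doxorubicin libraries. Points are libraries, with a shape for each replicate number, and the bar beside them is the mean ± SD (n = 3). GDF15 stood at 4.19 to 5.57 CPM in DMSO and at 614 to 781 CPM in doxorubicin, while the TGFB1 groups overlapped.

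GDF15 (ENSG00000130513, chr19:18374731-18389176, GRCh38, plus strand) encodes the stress cytokine. Its level in DMSO replicates 1 to 3 was 4.19, 5.57 and 5.41 CPM. In doxorubicin replicates 1 to 3 it was 781, 614 and 715 CPM. Every doxorubicin library stood far above every DMSO library, and the raw counts behind them were 75 to 107 and 11637 to 13738. The log2 fold change was 7.11 ± 0.12 (SE; 95% interval 6.85 to 7.38; adjusted p = 1.1e-14, edgeR), which ranked 66 from the highest among 15358 tested genes. No exon base of GDF15 lies in an exon of another gene. On the per-length scale GDF15 went from place 8 to place 1 of the 10 genes. It made up 2.05% to 2.31% of their summed RPKM in the DMSO libraries and 71.8% to 76.2% in the doxorubicin libraries.

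The genes whose centred log2 CPM over the 6 libraries lay closest to that of GDF15, among 12954 tested protein-coding genes, were TREM2, DRAXIN and PADI3. TREM2 encodes a lipid-sensing receptor, DRAXIN an axon guidance protein and PADI3 a peptidylarginine deiminase. Their root mean square differences from GDF15 were 0.22, 0.24 and 0.25 on the log2 scale with a prior count of 2. In DMSO all 3 were close to 0, at 0.0174 ± 0.0301, 0.200 ± 0.0662 and 0.304 ± 0.153 CPM, and after doxorubicin they stood at 13.8 ± 2.43, 33.5 ± 5.07 and 45.1 ± 6.57 CPM (SD, n = 3). At such levels the prior count sets much of the measured distance: TREM2 had 1 count in DMSO and 750 in doxorubicin, and its fitted log2 fold change was 9.12, against 7.11 for GDF15. The 3 names are therefore a description under that setting only.

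Known regulators of GDF15 transcription were read beside it. DDIT3 encodes the stress transcription factor CHOP and rose 9.42-fold, at 9.04 ± 0.364 CPM in DMSO and 85.2 ± 4.74 CPM in doxorubicin (adjusted p = 2.9e-14, edgeR), but 39.6% of its exon bases lie in exons of other genes, mostly of MARS1 on the opposite strand. ATF4, the transcription factor of the integrated stress response, rose 1.14-fold from 376 ± 43.1 to 430 ± 10.0 CPM (adjusted p = 0.032), with overlapping groups. EGR1, an immediate-early factor, stood at 203 ± 102 and 58.4 ± 25.5 CPM and did not pass (adjusted p = 0.067). The ATF4 call was lost in DESeq2 (adjusted p = 0.055) and without DMSO replicate 1 or 2 or doxorubicin replicate 2 or 3. EGR1 was called lower in DESeq2 (adjusted p = 0.010) and without DMSO replicate 3 (0.025).

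The activin subunit genes moved in opposite directions. INHBA (ENSG00000122641, chr7:41667168-41705834, minus strand) encodes the beta A subunit that forms activin A. Its level was 39.4, 63.0 and 51.4 CPM in DMSO replicates 1 to 3 and 97.7, 115 and 119 CPM in doxorubicin replicates 1 to 3. The groups did not overlap, and the rise was 2.15-fold (log2 fold change 1.10 ± 0.17 SE; 95% interval 0.70 to 1.51; adjusted p = 9.9e-04, edgeR).

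INHBB (ENSG00000163083, chr2:120346143-120351808, plus strand) encodes the beta B subunit of activin B. Its level was 12, 11.7 and 19.4 CPM in the DMSO libraries and 1.48, 2.11 and 2.41 CPM in the doxorubicin libraries. DMSO replicate 3 stood above the other two, and every doxorubicin library was far below all DMSO libraries. The log2 fold change was -2.84 ± 0.24 (SE; 95% interval -3.37 to -2.31; adjusted p = 5.4e-07, edgeR), the 16th from the lowest among all tested genes. The nearest profiles to INHBB belonged to PSRC1, SAPCD2 and PHF19, at root mean square differences of 0.23, 0.23 and 0.26. PSRC1 encodes a spindle protein and PHF19 a Polycomb-associated protein, and they stood at 69.7 ± 3.99 and 222 ± 20.1 CPM (SD, n = 3) in DMSO.

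The windows at the starts of GDF15 and of these 2 activin subunit genes are shown because the 3 genes hold the largest rise, the largest fall and the opposite moves within the activins. RefSeq (GRCh38.p14) gives each as 250 bases before to 50 after the start of transcription, printed 5′ to 3′ on the gene's strand. They lie at chr19:18385908-18386207 for GDF15, chr7:41703041-41703340 for INHBA and chr2:120345886-120346185 for INHBB. Capitals mark matches to the motifs searched on both strands, which can overlap one another.
GDF15: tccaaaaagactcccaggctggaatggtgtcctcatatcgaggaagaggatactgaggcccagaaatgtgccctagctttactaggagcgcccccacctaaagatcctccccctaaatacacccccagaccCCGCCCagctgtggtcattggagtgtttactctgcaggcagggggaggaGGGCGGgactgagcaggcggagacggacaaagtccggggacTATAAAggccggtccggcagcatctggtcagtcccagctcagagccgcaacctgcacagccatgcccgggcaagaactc
INHBA: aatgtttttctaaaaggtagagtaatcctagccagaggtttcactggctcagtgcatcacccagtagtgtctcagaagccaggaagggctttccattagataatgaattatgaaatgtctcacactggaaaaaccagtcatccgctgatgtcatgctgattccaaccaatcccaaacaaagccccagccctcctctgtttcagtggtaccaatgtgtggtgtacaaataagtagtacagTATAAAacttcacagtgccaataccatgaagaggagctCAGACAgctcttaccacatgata
INHBB: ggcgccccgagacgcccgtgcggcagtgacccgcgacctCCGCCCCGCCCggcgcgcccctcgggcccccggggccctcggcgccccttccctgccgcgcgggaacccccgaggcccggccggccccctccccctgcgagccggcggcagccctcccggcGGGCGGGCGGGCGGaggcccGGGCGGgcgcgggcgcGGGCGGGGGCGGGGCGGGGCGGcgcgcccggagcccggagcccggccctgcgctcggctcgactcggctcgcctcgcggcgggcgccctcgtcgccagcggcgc

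The 3 windows differ in base composition. INHBB is 88.7% G or C with 58 CG pairs, INHBA 43.3% with 1 CG pair, and GDF15 59.3% with 11, beside medians of 58.7% and 14 over 35116 RefSeq windows. The GDF15 window holds a TATA box (TATAAA, in 11.5% of all windows) 29 bases before the start and 2 GC boxes (GGGCGG, 44.95% of windows). The INHBA window holds TATAAA 11 bases before the start and CAGACA, a SMAD-type box (16.9% of windows), after it. The INHBB window holds 10 GC boxes, some of them overlapping, and an EGR1-type match (GCGGGGGCG, 5.07% of windows). The other motifs searched were AP-1 (TGANTCA, 7.71%), CRE (TGACGTCA, 1.85%), the SMAD palindrome (GTCTAGAC, 0.202%) and the CHOP-ATF element (TGATGNAAN, 3.61%). These letters had no match in the 3 windows. Of the members, 9 had a window, and among the others FST held TGATTCA, an AP-1 match. Windows of other members held the same letters as the windows shown. TATAAA lay at -29 in TGFB2, at -30 in a TGFB3 window and at -33 in GDF11. GC boxes numbered 9 in GDF11 and 7 in TGFB1, which also held an EGR1-type match. TGFB2 and a BMP4 window held CAGACA. TGFB1 and TGFB2 were not called, so these letters do not separate the members by direction. A match describes letters only. The counts cover whole genes, and the table's GDF15 and INHBA reach farther upstream than these starts, so the start in use was not measured.

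FST (ENSG00000134363, chr5:53480409-53487134, plus strand) encodes follistatin, which binds activins and GDF11 and keeps them from their receptors. Its level was 64.2, 96.7 and 82.6 CPM in the DMSO libraries and 116, 105 and 106 CPM in the doxorubicin libraries. The groups did not overlap, but the gap between the highest DMSO and the lowest doxorubicin library was narrow. The rise was 1.34-fold (log2 fold change 0.42 ± 0.13 SE; 95% interval 0.12 to 0.72; adjusted p = 0.020, edgeR). The call was lost without DMSO replicate 3 (adjusted p = 0.076) and without doxorubicin replicate 1 (0.098).

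INHBA was then set against FST within each library, as a ratio of counts per kilobase that does not depend on scaling between libraries. INHBA stood at 0.220, 0.233 and 0.223 of FST in the DMSO libraries and at 0.303, 0.392 and 0.399 in the doxorubicin libraries. The ratio was higher in every doxorubicin library, and doxorubicin replicate 1 was the lowest of them. On the log2 scale the difference was 0.68, from -2.15 ± 0.05 to -1.47 ± 0.22 (SD, n = 3; exact two-sided permutation p = 0.10, the smallest that 3 against 3 allows). FST remained the more abundant RNA per length in all 6 libraries. That order rests on the summed exon lengths of 8302 bases for INHBA and 2969 for FST, and the transcripts in use were not measured. In raw counts INHBA stood above FST in doxorubicin replicates 2 and 3 (2173 and 2121 against 1983 and 1900).

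GDF11 (ENSG00000135414, chr12:55743280-55757278, plus strand) encodes a close relative of myostatin. Its level was 47.6, 44.5 and 47.4 CPM in the DMSO libraries and 29.7, 32.8 and 35.4 CPM in the doxorubicin libraries. The groups were well separated, with the smallest spread in DMSO of the 10 genes (coefficient of variation 3.69%). GDF11 fell 1.43-fold (log2 fold change -0.51 ± 0.08 SE; 95% interval -0.68 to -0.34; adjusted p = 4.0e-05, edgeR).

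**Figure D2:**
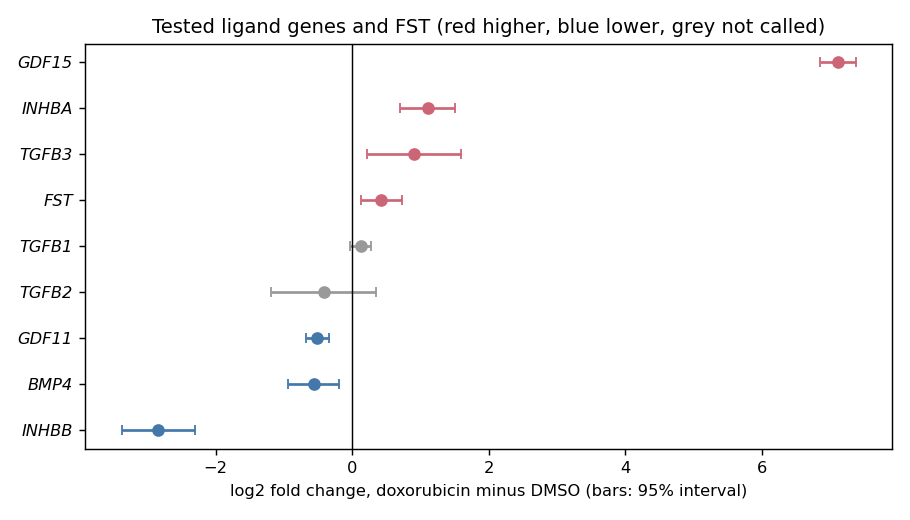
Log2 fold change of the 9 tested genes, doxorubicin minus DMSO (horizontal axis), with 95% intervals from edgeR's quasi-likelihood fit. GDF15 lies at 7.11 and INHBB at -2.84, and the intervals of TGFB1 and TGFB2 include 0.

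Among the TGF-beta isoforms, TGFB1 (ENSG00000105329, chr19:41301587-41353911, minus strand) was the most abundant per exon length in every library. Its level was 136, 143 and 156 CPM in the DMSO libraries and 170, 146 and 158 CPM in the doxorubicin libraries. These values overlapped, and the log2 fold change was 0.12 ± 0.07 (SE; 95% interval -0.03 to 0.28; adjusted p = 0.14, edgeR). With library totals only, TGFB1 was at the threshold (log2 fold change 0.17, adjusted p = 0.050, just under it before rounding). Of its exon bases, 6.64% lie in exons of HNRNPUL1 on the opposite strand.

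TGFB2 (ENSG00000092969, chr1:218346235-218444619, plus strand) stood at 56.9, 60.4 and 70.8 CPM in the DMSO libraries and at 28.5, 55.1 and 56.9 CPM in the doxorubicin libraries. Doxorubicin replicate 1 stood at 28.5 CPM beside a mean of 56.0 CPM in the other two, which lay just under the lowest DMSO library. The log2 fold change was -0.42 ± 0.29 (SE; 95% interval -1.19 to 0.35; adjusted p = 0.27, edgeR), and -0.16 without doxorubicin replicate 1 (adjusted p = 0.11). Of the exon bases of TGFB2, 26.6% lie in TGFB2-OT1 on the same strand, which had 0 counts, and whether reads there were counted for TGFB2 is not known. TGFB3 (ENSG00000119699, chr14:75958099-75982991, minus strand) was scarce, at 1.23, 0.521 and 0.884 CPM in DMSO and 1.93, 1.48 and 1.51 CPM in doxorubicin. These levels came from 10 to 34 counts per library. TGFB3 rose 1.87-fold (log2 fold change 0.90 ± 0.33 SE; adjusted p = 0.023, edgeR), a call that was lost in DESeq2 (0.11), without DMSO replicate 2 (0.12) and without doxorubicin replicate 1 (0.076).

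Per exon length, with the whole TGFB2 length used, TGFB1 made up 77.6% to 78.9% of the 3 isoform genes in the DMSO libraries and 89.9%, 80.4% and 81.2% in doxorubicin replicates 1 to 3. TGFB2 made up 20.8% to 22.1% in DMSO and 9.47%, 19.1% and 18.3% in doxorubicin. Neither share overlapped between the groups (exact two-sided permutation p = 0.10 each, the smallest possible with n = 3 per group). Because TGFB3 was scarce, the TGFB1 and TGFB2 shares nearly mirror each other and are not separate results. The TGFB1 share was higher by 5.38 points, and by 2.34 points without doxorubicin replicate 1. The TGFB2 share differed by -5.63 points, and by -2.55 points without it. TGFB3 made up 0.189% to 0.470% in DMSO and 0.511% to 0.673% in doxorubicin (exact permutation p = 0.10).

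**Figure D3:**
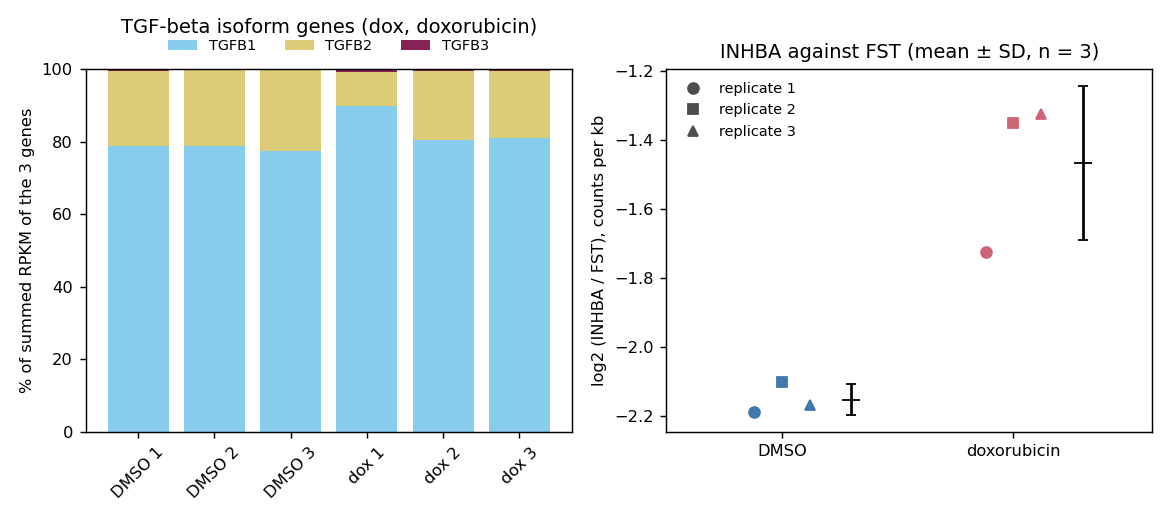
Left, share of TGFB1, TGFB2 and TGFB3 in their summed RPKM (%, stacked bars, 1 bar per library). Right, log2 ratio of INHBA to FST in counts per kilobase, with points for libraries and mean ± SD (n = 3) beside them. TGFB1 led in all libraries, its highest share of 89.9% was in doxorubicin replicate 1, and the ratio was higher in all 3 doxorubicin libraries.

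BMP4 (ENSG00000125378, chr14:53949736-53958761, minus strand), a ligand of the SMAD1, SMAD5 and SMAD9 branch, fell. Its level was 21.5, 23.95 and 28.1 CPM in the DMSO libraries and 11.9, 18.4 and 19.3 CPM in the doxorubicin libraries. The groups did not overlap, and doxorubicin replicate 1 stood at 11.9 CPM beside a mean of 18.8 CPM in the other two. The fall was 1.48-fold (log2 fold change -0.56 ± 0.17 SE; 95% interval -0.94 to -0.19; adjusted p = 0.014, edgeR), with a log2 fold change of -0.38 without that library (adjusted p = 0.0071).

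BMP2 (ENSG00000125845, chr20:6767664-6780280), the closest relative of BMP4, was near the limit of detection. It had 0, 1 and 0 counts in the DMSO libraries and 9, 4 and 4 in the doxorubicin libraries. The ratio of group totals was 17.3, with an exact 95% counting interval of 2.70 to 721 that covers counting error only. BMP2 was called higher where no filter was applied (log2 fold change 3.66, adjusted p = 0.0037) and in DESeq2 (4.01, adjusted p = 0.032). Its level after doxorubicin was still 0.315 ± 0.170 CPM (SD, n = 3).

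Doxorubicin replicate 1 lay farthest of the treated libraries from the DMSO mean in 9 of the 10 genes, INHBA being the exception. Over all tested genes it was the farthest in 47.0%. Without it, 2 members rose (GDF15 and INHBA) rather than 4, and the same number, 3, fell. Over all genes tested without it, 5005 of 15714 were higher and 4824 lower, against 5017 and 4917 of 15358 with it.

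Levels of different genes were compared per exon length. In DMSO the order was TGFB1 (44.8 ± 3.17 RPKM), FST (27.3 ± 5.49), TGFB2 (12.2 ± 1.4), BMP4 (7.95 ± 1.08), INHBA (6.18 ± 1.42), GDF11 (5.37 ± 0.199), INHBB (4.49 ± 1.37), GDF15 (2.42 ± 0.362), TGFB3 and BMP2 (SD, n = 3). The ranges of BMP4 and INHBA, of INHBA and GDF11, and of GDF11 and INHBB overlapped, so these neighbours were not separated. In doxorubicin GDF15 led with 337 ± 40.2 RPKM, followed by TGFB1 (48.8 ± 3.75), FST (36.7 ± 1.96), INHBA (13.3 ± 1.34), TGFB2 (9.09 ± 3.08), BMP4 (5.36 ± 1.30) and GDF11 (3.77 ± 0.333). TGFB2, BMP4 and GDF11 overlapped with their neighbours there. INHBB had dropped to 0.624 ± 0.148 RPKM, and TGFB3 and BMP2 again came last.

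**Figure D4:**
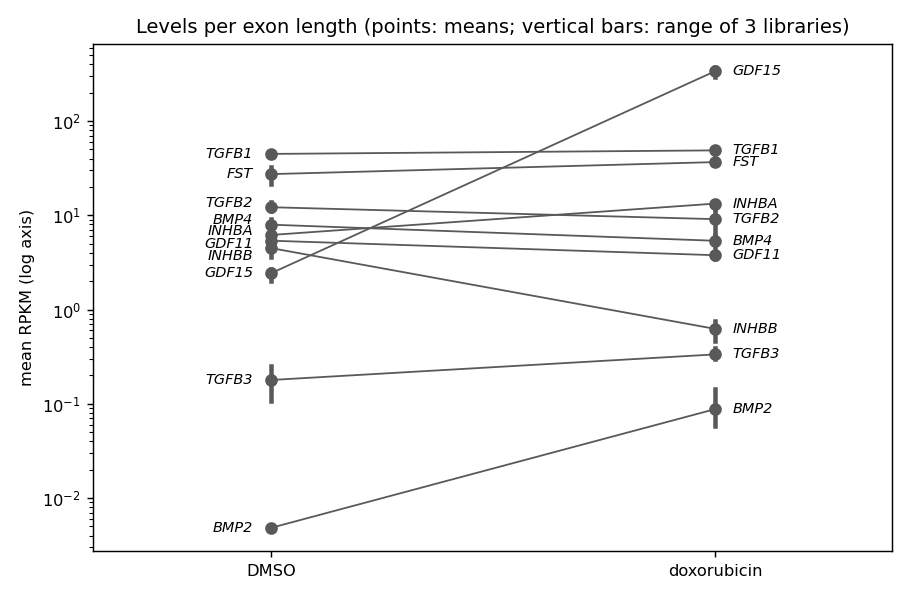
Mean RPKM (log axis) of the 10 genes in DMSO and doxorubicin, joined by lines, with vertical bars for the range of the 3 libraries (no bar for BMP2 in DMSO, where 2 libraries are at 0). GDF15 moves from 2.42 to 337 RPKM and INHBB from 4.49 to 0.624 RPKM, while the next largest move among the tested genes is the 2.15-fold rise of INHBA.

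Of 21 further ligands of the superfamily, 4 passed the filter on low counts, and 3 of these rose, beside 32.7% of all tested genes. GDF6, a ligand of the BMP branch, rose 1.74-fold from 17 ± 1.5 to 29.7 ± 4.04 CPM (adjusted p = 7.2e-06, edgeR). BMP8B rose 4.29-fold from 0.218 ± 0.00814 to 0.956 ± 0.264 CPM, on 4 counts in each DMSO library and 12 to 21 per doxorubicin library. AMH, anti-Müllerian hormone, rose 1.17-fold from 32.6 ± 3.68 to 38.1 ± 1.52 CPM with overlapping groups (adjusted p = 0.036). BMP7 had 0 counts in every DMSO library and 14, 4 and 6 counts in doxorubicin replicates 1 to 3, so replicate 1 held most of them. It did not pass the filter, and it was called higher with no filter (adjusted p = 1.3e-05) and in DESeq2 (0.0013). All exon bases of GDF1 lie in exons of CERS1, and GDF1 had 0 counts.

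Of 16 receptor genes, 14 were measured, and 6 rose and 4 fell. The receptor list and those below were chosen with results of these data known, so their counts are descriptions. They stand beside 32.7% higher and 32.0% lower over all tested genes. TGFBR1, the type I receptor for TGF-beta, stood at 51.8 to 53.5 CPM in DMSO and 169 CPM in every doxorubicin library, a 3.20-fold rise (adjusted p = 1.1e-12, edgeR). ACVR1C, the type I receptor ALK7, rose 6.29-fold from 0.670 ± 0.0598 to 4.25 ± 0.697 CPM. RET, the signalling partner of GFRAL, had 3 counts in DMSO and 290 in doxorubicin, a ratio of 98.1 (exact 95% counting interval 33.2 to 478). GFRAL itself had 0 and 4 counts. BMPR1B, a type I BMP receptor, rose 1.95-fold from 0.581 ± 0.0735 to 1.14 ± 0.0752 CPM, on 10 to 12 counts per DMSO library. The receptor gene ACVR1B rose 1.42-fold from 54.0 ± 2.39 to 76.8 ± 1.56 CPM (adjusted p = 4.8e-06, edgeR). ACVR1 rose 1.26-fold from 44.2 ± 1.93 to 55.7 ± 3.28 CPM (adjusted p = 9.0e-04). The genes that fell were ENG, the co-receptor endoglin (1.64-fold), BMPR1A (1.41-fold), TGFBR2 (1.22-fold) and BMPR2 (1.18-fold). The genes ACVR2A and ACVR2B, type II receptors for activins, stood at 12.2 ± 1.37 and 3.51 ± 1.02 CPM in DMSO and 11.9 ± 0.880 and 4.31 ± 0.644 CPM in doxorubicin, and did not pass.

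All 6 signalling SMAD genes were measured. SMAD3, the transducer for TGF-beta and activin, rose 1.69-fold from 159 ± 15.5 to 268 ± 9.15 CPM, and SMAD5, a BMP transducer, rose 2.17-fold from 81.5 ± 6.73 to 177 ± 7.11 CPM. SMAD1, another BMP transducer, fell 2.10-fold from 7.59 ± 0.697 to 3.61 ± 0.310 CPM, and SMAD2 fell 1.21-fold. SMAD4 and SMAD9 did not pass. Among 12 intracellular and membrane brakes, 7 rose and 4 fell, beside 32.7% and 32.0% of all tested genes. PMEPA1, which sequesters SMAD2 and SMAD3, rose 6.79-fold from 6.63 ± 1.34 to 45 ± 3.74 CPM. SMAD6, an inhibitory SMAD of the BMP branch, fell 6.54-fold from 14.4 ± 0.979 to 2.20 ± 0.282 CPM, while SMAD7, the general inhibitory SMAD, rose 1.6-fold. TGIF2, SMURF2 and SMURF1 also fell, by 2.56-fold, 1.31-fold and 1.22-fold.

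Of 19 secreted antagonists, 11 were measured, 2 rose and 6 fell, beside 32.7% and 32.0% of all tested genes. Their median log2 fold change was -0.53. GREM1 encodes the BMP antagonist gremlin. It stood at 1614 ± 145 CPM in DMSO and 719 ± 8.0 CPM in doxorubicin, 2.25-fold lower (adjusted p = 4.6e-10, edgeR). CHRDL1, a chordin-like BMP antagonist, fell 2.66-fold from 5.29 ± 0.429 to 1.98 ± 0.397 CPM. NOG, noggin, fell 2.54-fold from 13.2 ± 6.05 to 5.23 ± 1.37 CPM with overlapping groups (adjusted p = 0.049). CHRD, chordin, rose 7.22-fold from 0.109 ± 0.0550 to 0.827 ± 0.166 CPM, on 1 to 3 counts per DMSO library and 12 to 18 per doxorubicin library. NBL1 rose 1.27-fold. FSTL3, a follistatin-like activin antagonist, stood at 72.3 ± 6.10 and 68.8 ± 7.35 CPM and did not pass.

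Of 15 measured genes for latency and proteolytic activation (17 listed), 7 rose and 3 fell, beside 32.7% and 32.0% of all tested genes. The median log2 fold change was 0.67. BMP1, the procollagen protease that also cleaves ligand complexes, rose 2.65-fold from 77.6 ± 6.74 to 206 ± 2.87 CPM. LTBP1 and LTBP3, for proteins that hold latent TGF-beta in the matrix, rose 1.67-fold and 1.62-fold, while LTBP4, of the same family, stood at 64.6 ± 4.71 and 65.2 ± 2.82 CPM (adjusted p = 0.89). LTBP2, a family member that does not bind latent TGF-beta, rose 2.56-fold. FBN1, fibrillin, fell 1.4-fold, NRROS fell 2.54-fold to 0.608 ± 0.0734 CPM, and FURIN, the convertase that cuts the pro-ligands, fell 1.14-fold from 102 ± 9.19 to 89.8 ± 1.63 CPM (adjusted p = 0.032).

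Of 17 measured TGF-beta target genes, 9 were higher and 3 lower (median log2 fold change 0.64), beside 32.7% and 32.0% of all tested genes. ACTA2 encodes smooth muscle actin and rose 7.65-fold, from 8.81 ± 4.38 to 67.3 ± 1.84 CPM, though 30.1% of its exon bases lie in exons of other genes. IL11, a profibrotic cytokine chosen here after its values were seen, rose 3.42-fold from 48.95 ± 11.1 to 168 ± 13.8 CPM. The genes that fell were the collagens COL1A1 (3.13-fold), COL3A1 (1.88-fold) and COL1A2 (1.77-fold), which also stand in the fibroblast marker list. CCN2, TAGLN, TGFBI, FN1 and SKIL did not pass, with log2 fold changes of -0.58, -0.52, -0.01, 0.11 and 0.02. Of 12 measured BMP target genes, 5 rose and 5 fell, beside the same shares of all tested genes. The 5 that fell were ATOH8 (8.37-fold), SMAD6, ID1 (3.19-fold), ID2 (2.19-fold) and ID3 (2.14-fold). By their estimates all 5 fell at least 2-fold, and 2 of the 5 that rose did so at least 2-fold. When tested against a 2-fold change (edgeR's glmTreat), 3 BMP targets were lower and 1 higher. Beside these stand 430 lower and 1464 higher of all 15358 tested genes. ID1, an inhibitor of differentiation and the classic BMP target, went from 132 ± 31.8 to 41.4 ± 6.36 CPM (adjusted p = 7.5e-04, edgeR). The 5 that rose were MSX1 (2.58-fold), HEY1 (2.26-fold), MSX2 (1.999-fold), SMAD7 and BAMBI (1.41-fold), a pseudoreceptor. SMAD6, SMAD7 and BAMBI also stand in the list of brakes, as do SMAD7, PMEPA1 and SKIL of the TGF-beta targets. These lists are therefore not separate.

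Some of these calls were not kept in all of 14 other settings (those listed under processing except glmTreat). NOG lost its call in 10 of them, AMH, COL3A1, FURIN and HEY1 in 6 each, ATF4 in 5 and BMPR1B in 4.

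**Figure D5:**
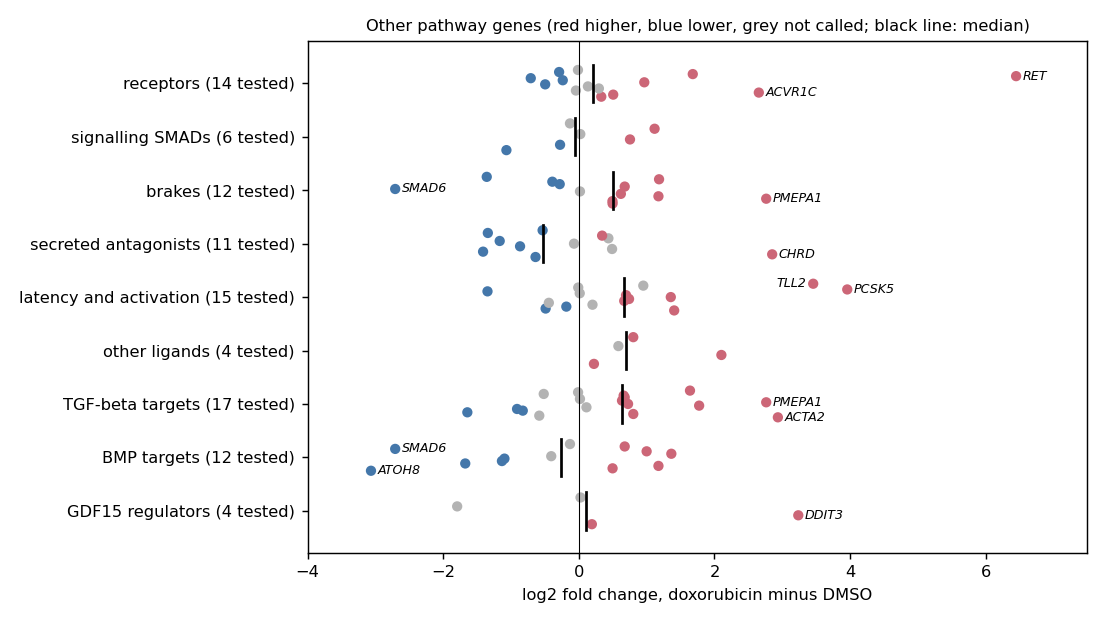
Log2 fold change (horizontal axis, doxorubicin minus DMSO) of each measured gene in the 9 other pathway lists. A point is a gene, colour gives the call, and the black line is the list's median. Genes beyond 2.5 in either direction are named. RET lies at 6.45 and ATOH8 at -3.07.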

How the data were processed

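The authors deposited unnormalized counts for each gene, and per the file headers it was written in featureCounts format. Tools listed in the submitters' processing notes are featureCounts, Subread, STAR and SAMtools, and the build listed is GRCh38 (hg38). Their versions, whether reads or pairs were counted, and the handling of overlapping genes are not given in the sources used here. The libraries are unstranded per the labels' protocols, so a gene and an overlapping antisense gene cannot be told apart. Symbols came from a gene name table (57717 of 58299 IDs), then GENCODE release 29. Columns of other samples numbered 0.

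The test was that of edgeR 4.0.16 (R 4.3.3): filterByExpr (minimum count 10, total 15), TMM scaling, a robust quasi-likelihood F test (doxorubicin against DMSO), no covariates, two-sided, Benjamini-Hochberg over 15358 genes. The SE is |log2 fold change| over the root of F. Likeness to a member used log2 CPM with a prior count of 2. Replicates differed by more than sampling noise (chi-square per degree of freedom 2.82 to 9.39). A group total of 0 allows a level of 0.0543 CPM in DMSO and 0.0551 CPM in doxorubicin (floor of 3 counts per group), for counting error only. Genes named are the members, the 2 called genes with the largest change in each list (mean log2 CPM of at least 1), and those in a direction taken by 5 or fewer. Further list genes (TGFBR1, BMPR1B, ACVR1, ACVR1B, GREM1, LTBP1, LTBP3, PCSK5, TLL2, IL11, BMP7 and those that did not pass or were not tested) were chosen after their values were seen. Members and lists were chosen with earlier results of these data known. Alternatives were DESeq2 1.42.0, RLE, upper-quartile and no scaling, other filters, a replicate block, each library left out, the 50 most abundant genes left out, and glmTreat. One gene of the GDF15 regulator list and one motif are not reported here.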

Additional observations from a re-analysis of the deposited data

How the results depend on the processing

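GDF15 and INHBB kept their direction and call in all 15 alternatives, with log2 fold changes of 6.99 to 7.20 and -2.98 to -2.57. INHBA, GDF11 and BMP4 kept theirs except against a 2-fold change (glmTreat), and 0 members reversed. Each library left out in turn gave 2 to 4 members higher and 3 lower, the lowest without doxorubicin replicate 1, and 1 or 2 GDF15 regulators higher and 0 or 1 lower. Deviations of libraries with equal replicate numbers were hardly correlated (0.05, -0.02 and 0.03). With 3 libraries per group this cannot settle whether they were paired, and the labels do not say. With a replicate block, 4 members were higher and 3 lower, and TGFB2 had a log2 fold change of -0.46 (adjusted p = 0.062). The block gave adjusted p = 7.4e-09 for INHBA and 1.5e-04 for BMP4 in edgeR, against 9.9e-04 and 0.014 without it. For GDF11 and TGFB1 it changed little (4.3e-05 and 0.15, against 4.0e-05 and 0.14).

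Against a 2-fold change, by construction, fewer genes passed: 1 member higher and 1 lower, receptors 3 and 0, signalling SMADs 0 and 0, brakes 2 and 2, secreted antagonists 1 and 1, latency genes 4 and 0, other ligands 1 higher, TGF-beta targets 4 and 1, BMP targets 1 and 3, and GDF15 regulators 1 higher. Over all 15358 tested genes, 1464 were higher and 430 lower against a 2-fold change. A filter of 1 CPM in 3 libraries removed CHRD from the test and left 1 antagonist higher. Without the 50 most abundant genes, GREM1, FSTL1, COL1A1 and COL1A2 were not tested, NOG missed the threshold, 3 antagonists were lower, and 1 TGF-beta target was lower. DESeq2 gave 1 GDF15 regulator higher and 1 lower. The median log2 fold change of all tested genes was 0.11 in DESeq2 and 0.37 with no filter, both of which test more low-count genes. Depth limits TGFB3 and BMP2 most.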
